A study of Hordeum vulgare with 4 samples.

Results

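The most abundant transcripts of barley (Hordeum vulgare) callus whose share of the counts moved little across 4 RNA-seq libraries are described here: 200 of the 61598 assembled genes. For each gene the estimated counts of its isoforms were summed, rounded and divided by the library total to give CPM, the counts a gene would have in a library of fixed size. The genes were chosen by these CPM values: a gene qualified when its highest CPM over the 4 libraries was at most 1.5 times its lowest. The 200 qualifying genes with the largest lowest CPM were taken. A gene was left out if it had an isoform without counts in both D91 libraries and another without counts in both GP libraries, where each of those isoforms had 10 or more counts in the other cultivar's libraries. This removed 1 gene of the same abundance, TRINITY_GG_17774_c0_g1. The level and the small spread of the 200 genes were thus set by their choice and are given as a description, without a test.

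Callus is a mass of dividing, largely unorganised cells that forms on explants under auxin and from which shoots can be regenerated. In plant tissues, transcripts that are both abundant and even between samples often belong to the machinery that every growing cell needs. Ribosomal proteins, translation elongation factors, ubiquitin, tubulin, actin and glycolytic enzymes are the usual examples, and several of them serve as reference genes in barley. Whether the 200 genes include these was not determined. The files carry assembly identifiers without gene names, and 0 of the 200 identifiers matched the reference table of 58438 barley genes. The callus label could not be set against marker genes for the same reason.

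The libraries came from callus of cultivar GP (Golden Promise), widely used for barley transformation, and of cultivar D91 (DWR91), with 2 libraries each. All calli were of the same age, 31 days, with 28 days on induction medium in darkness and 3 days under indirect light on the second medium. The study contrasted the cultivars for regeneration in vitro. The labels do not say whether replicates came from separate cultures, so the spread between them may be technical. Totals were 1743621 and 3443040 counts in D91 replicates 1 and 2, and 1825505 and 1737140 in GP replicates 1 and 2. The D91 replicates lay further apart than the GP replicates, which touches every value below. CPM is a share of a library, and in bulk tissue fewer cells of a type and less RNA per cell cannot be told apart.

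Between 13.1% and 13.5% of all counts in each library fell on the 200 genes. Their summed share averaged 13.1% ± 0.0154 for D91 (SD, n = 2) and 13.4% ± 0.134 for GP (SD, n = 2). The 10 most abundant of them took 3.69% and 3.74% of the D91 counts and 3.78% and 3.95% of the GP counts. The lowest CPM per gene ran from 229 to 9151, with a median of 356 and quartiles of 274 and 530. The genes reached 5 of the 10 most abundant genes of the callus by mean CPM, 19 of the top 50 and 37 of the top 100. Each had at least 400 counts in every library, so all 200 passed the filter on low counts. Counting error alone was at most 5% at the lowest count of a library and 2.73% at the median count of 1341 in D91 replicate 2, the deepest library.

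Being stable was common at this abundance. Of the 391 genes with a lowest CPM at or above that of the last of the 200, 201 (51.4%) lay within 1.5 times and 190 (48.6%) lay above. Among genes with a lowest CPM of 1 to 3 the share within the limit was 3.75%, and it was 28.96% at 10 to 30 CPM. It was 51.5% from 100 to 300 CPM, 50.7% from 300 to 1000 and 56.4% of the 39 genes above 1000. The share thus climbed with abundance up to about 100 CPM and was level above it, where counting error is small. Without D91 replicate 1 it became 69.5% and without D91 replicate 2 it became 66.3%, against 53.1% and 54.6% without the GP replicates.

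**Figure D1:**
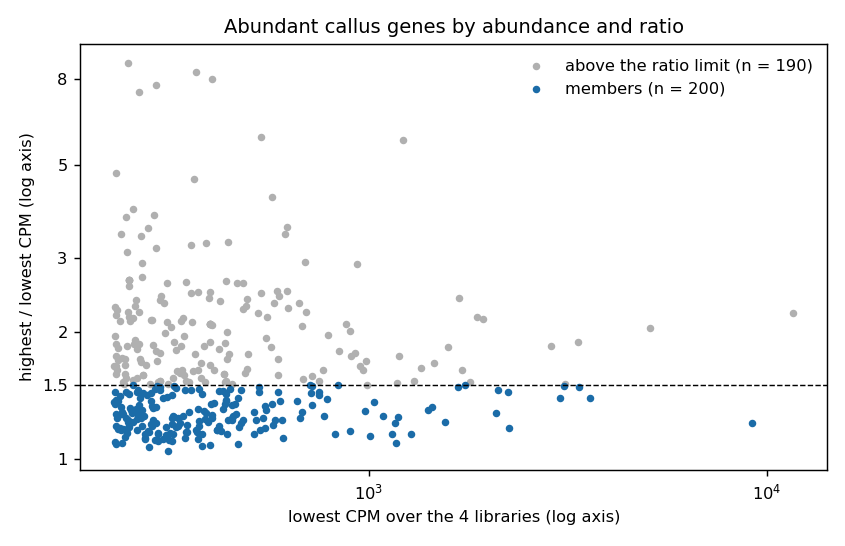
Each point is a gene with a lowest CPM at or above that of the last member; the horizontal axis gives its lowest CPM over the 4 libraries and the vertical axis its highest divided by its lowest CPM, both on log axes. The 200 members (blue) lie under the dashed limit of 1.5 by construction, and the 190 genes above it (grey) reach a ratio of 8.72.

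The most abundant of the 200, TRINITY_GG_16127_c0_g2, stood at 9644 and 9510 CPM in D91 and at 9151 and 11141 CPM in GP. It ranked 2 of all callus genes by mean CPM, and its cultivars overlapped. It also held the first place among the 200 per length, with a lowest signal of 6107 on the authors' length-scaled TMM scale. TRINITY_GG_3982_c2_g1 followed with 3602 and 4167 CPM in D91 and 4587 and 5016 in GP, so that both GP libraries lay above both D91 libraries. TRINITY_GG_10266_c0_g1 had 3531 and 4998 CPM in D91 and 3663 and 3365 in GP. Here D91 replicate 2 alone stood high. TRINITY_GG_28472_c0_g1 had 4617 and 3557 CPM in D91 and 4006 and 3094 in GP, with the cultivars overlapping.

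The evenest of the 200 was TRINITY_GG_1090_c0_g1, at 327 and 318 CPM in D91 and 313 and 315 in GP, a ratio of 1.05. TRINITY_GG_10656_c0_g1 had 289 and 298 CPM in D91 and 279.8 and 284 in GP, a ratio of 1.07. TRINITY_GG_27456_c0_g1 had 388 and 381 CPM in D91 and 407 and 384 in GP, also a ratio of 1.07. Both D91 libraries lay above both GP libraries in the first and the second of these, by a few percent, and the cultivars overlapped in the third. Over the 200 genes the median ratio was 1.26, with quartiles of 1.18 and 1.38. The ratio was at most 1.2 in 62 genes and above 1.4 in 41.

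The limit of 1.5 cut through a continuous range. Just inside it were TRINITY_GG_12255_c0_g1 with a ratio of 1.499, TRINITY_GG_8358_c0_g1 with 1.497 and TRINITY_GG_3964_c0_g1 with 1.495. Just outside it were TRINITY_GG_14482_c0_g1 with 1.501, TRINITY_GG_2825_c0_g1 with 1.505 and TRINITY_GG_5920_c0_g1 with 1.506. By abundance the last gene included was TRINITY_GG_18724_c1_g1 with a lowest CPM of 229, and the first left out was TRINITY_GG_16309_c0_g1 with 228. Neither limit marks a gap in the data.

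The fold between the D91 replicates was larger at the median in these genes than that between the cultivar means. The former compares single libraries and the latter averages of libraries, which vary less, so they are not like measures. The median fold between the D91 replicates was 1.16, that between the GP replicates 1.05 and that between the cultivar means 1.12. The fold within D91 exceeded the fold within GP in 151 of the 200 genes, and it exceeded the fold between cultivar means in 109. The fold within GP exceeded that between cultivar means in 60. In 78 genes the cultivar means differed by more than either pair of replicates. Per library, the log2 deviation from the gene's own mean had an SD across the 200 genes of 0.18 and 0.16 in D91 and of 0.11 and 0.13 in GP. Its median lay between -0.03 in D91 replicate 2 and 0.03 in GP replicate 2. All of these are values the choice of genes bounds from above.

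**Figure D2:**
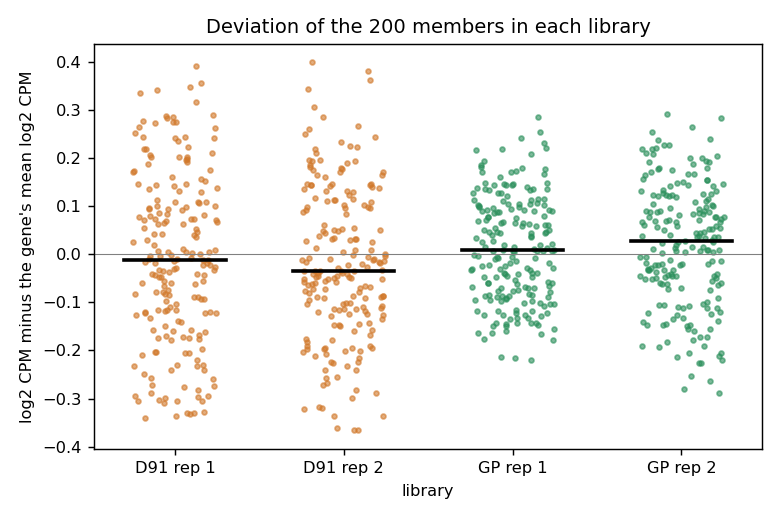
Each point is a gene of the 200; the vertical axis gives its log2 CPM in a library minus its mean log2 CPM over the 4 libraries, for D91 (orange) and GP (green), and black lines mark medians. The D91 libraries are more widely spread, with SDs of 0.18 and 0.16 against 0.11 and 0.13 in GP.

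The D91 replicates also lay further apart than the GP replicates in the abundant genes above the limit, where the cultivar means differed the most. Among those 190 genes the median fold was 1.47 between the D91 replicates, 1.10 between the GP replicates and 1.54 between the cultivar means. In 87 of them (45.8%) the D91 replicates by themselves differed over 1.5-fold, and in 3 the GP replicates did. In 46 (24.2%) the D91 replicates differed over 1.5-fold while the cultivar means did not. The cultivar means differed over 1.5-fold in 106 (55.8%), and in 64 of these both pairs of replicates stayed within the limit. Which genes count as stable was therefore set by the spread of D91 as well as by the cultivars.

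**Figure D3:**
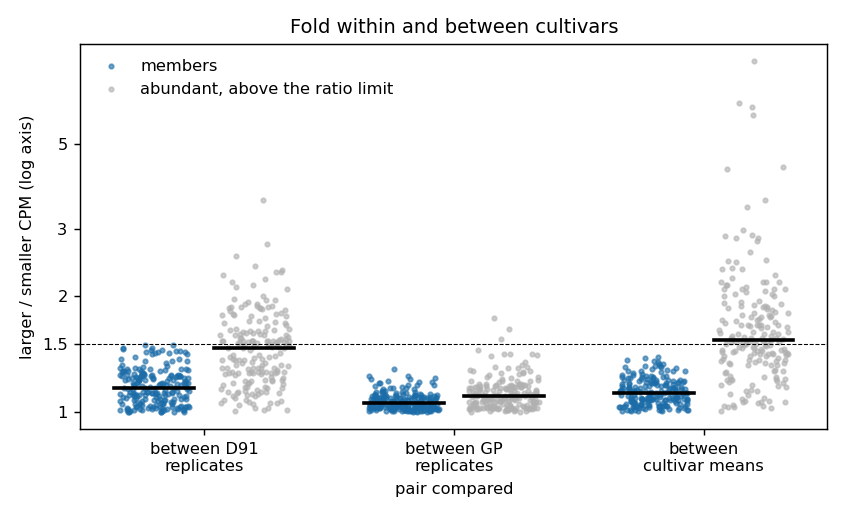
The vertical axis (log scale) gives the larger over the smaller CPM for the D91 replicates, the GP replicates and the cultivar means, for the 200 members (blue) and the 190 abundant genes above the limit (grey), with medians as black lines. Medians of the members are 1.16, 1.05 and 1.12, and those of the genes above the limit are 1.47, 1.10 and 1.54.

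The direction of the small differences depended on the scale. By library totals, both GP libraries lay above both D91 libraries in 64 of the 200 genes, where the share over all 18039 tested genes was 38.1%. The D91 libraries lay above in 47, where it was 27.5%, and in 89 the cultivars overlapped. On the TMM scale, which corrects library totals for the genes that differ, 31 genes had GP above (32.6% of all tested genes) and 73 had D91 above (32.9%). The mean was higher in GP in 112 genes by library totals and in 66 by TMM. The median log2 fold change, GP minus D91, was -0.06 by TMM and 0.06 by library totals, beside 0.01 and 0.12 over all tested genes. The choice by library totals draws the 200 values towards 0 on that scale, so nothing is read from the gap to all genes. Of the 200, 183 stayed within 1.5 times on the TMM scale.

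By the edgeR quasi-likelihood test across all genes, 0 of the 200 genes passed an adjusted p under 0.05, beside 19.2% of all tested genes. The choice of genes used this contrast, so nothing is read from the count. At an unadjusted p under 0.05 there were 3, and DESeq2 called 1. The median absolute log2 fold change was 0.15, against 0.52 over all tested genes, which include far less abundant ones. The limit on the ratio keeps the former small, so nothing is read from this gap either. Leaving out a D91 replicate raised the number of calls among the 200 and over all tested genes. The spread is then taken from the GP pair alone, and the set of tested genes changes as well. The cause of the rise was not tested. Leaving out a GP replicate lowered the number over all tested genes. Such fits hold a single library of a cultivar, so their counts are not given here and nothing is read from them. Of the 190 abundant genes above the limit, 55 (28.9%) passed with all 4 libraries. Those genes were taken for their larger ratio in the same libraries, so this share is a description too.

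Stability was also read in libraries that had no part in the choice. The 200 most abundant genes within 1.5 times between D91 replicate 1 and GP replicate 1 were taken, without the isoform criterion, and their ratio was read between D91 replicate 2 and GP replicate 2. There 165 of 200 (82.5%) lay within 1.5 times, with a median ratio of 1.19. Of all 269 genes at or above the same abundance 192 (71.4%) did, and of the 69 that had been above the limit 27 (39.1%) did. With the second replicates choosing and the first read, the counts were 168 of 200 (84%), 200 of 272 (73.5%) and 32 of 72 (44.4%). Most genes that were even in a pair of libraries were thus also even in the other pair, as were most genes of that abundance. Of the genes chosen in this way, 132 and 135 were among the 200 described here. For those, the choice of the 200 already fixed the ratio in the other pair, so the reading is no test of the 200.

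**Figure D4:**
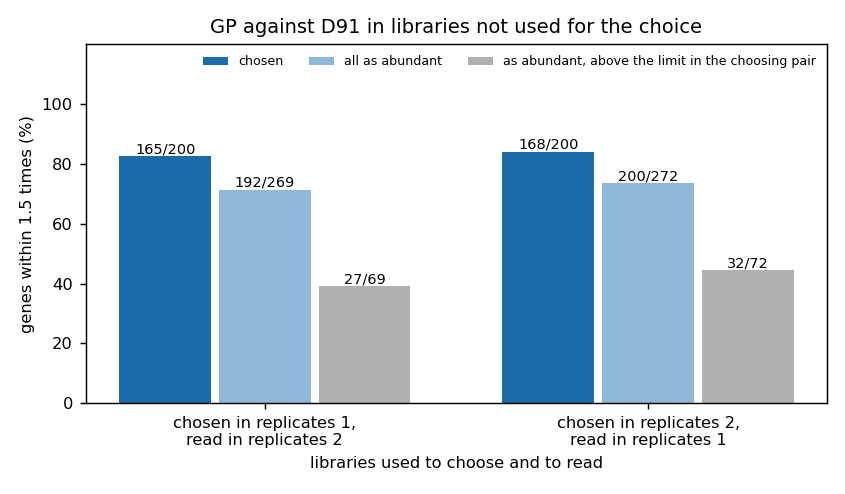
Bars give the percentage of genes whose GP and D91 CPM lay within 1.5 times in the libraries not used for the choice, with gene numbers above them, for the chosen genes, all genes as abundant, and those above the limit in the choosing pair. The chosen genes reach 82.5% and 84%, all genes as abundant 71.4% and 73.5%, and the genes above the limit 39.1% and 44.4%.

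Most of the 200 genes were assembled as a single transcript. In 149 there was 1 isoform and in 51 (25.5%) there were 2 or more, up to 10. Of the 190 equally abundant genes above the limit 35.8% had several isoforms, and of the 13714 genes that had 10 or more counts in each of the libraries 40.3% did. Relative transcript length was taken as counts over length-scaled signal and set to 1 at the median of those 13714 genes. The median of the 200 was 1.31, with quartiles of 0.72 and 1.82, and 126 were longer than the reference and 74 shorter. The median of the 190 genes above the limit was 0.96. At equal numbers of transcripts a longer transcript gives more counts, so rank by CPM is not rank by transcript number. Of the 20 genes leading by lowest CPM, 13 were among the 20 leading by lowest length-scaled signal. TRINITY_GG_1666_c0_g1, at 0.09 of the reference length, ranked 50 by CPM and 3 by signal, with 3812 and 5306 in D91 and 3934 and 4098 in GP.

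Since the length-scaled signal is the authors' own scale, the evenness of the 200 genes was read on it too. Within 1.5 times were 173 of them, and 27 lay above, 16 with 1 isoform and 11 with several. The highest value of all 27 was in a D91 library, in replicate 1 for 11 and in replicate 2 for 16. For genes with 1 isoform the signal over CPM, relative to the gene's own mean, had a median of 1.02 and 1.10 in D91 and of 0.96 and 0.93 in GP, and single genes departed from these medians. The largest ratios were those of TRINITY_GG_10266_c0_g1, with a signal of 936 and 1425 in D91 and 916 and 812 in GP (ratio 1.76), and of TRINITY_GG_18916_c1_g1, with 426 and 589 in D91 and 385 and 338 in GP (ratio 1.74). In both, D91 replicate 2 was the highest library on this scale and in CPM.

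In the 51 genes with several isoforms, 1 isoform usually carried the gene in both cultivars. It held over 90% of the counts on average in 36 genes and over 50% in 49. The leading isoform was the same in both cultivars in 47. The largest difference in an isoform's share between the cultivar means had a median of 1.43 percentage points and an upper quartile of 4.50, and it stayed under 5 points in 39 genes. It exceeded 10 points in 6. The share of an isoform in its gene is not fixed by the gene total. The criterion on isoforms had however removed 1 gene of this abundance, which had an isoform without counts in D91 and another without counts in GP. Large shifts may thus be fewer by construction.

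TRINITY_GG_3964_c0_g1 exchanged its isoforms between the cultivars while its total overlapped. The total was 836 and 1250 CPM in D91 and 979 and 1022 CPM in GP, among the least even of the 200 because the D91 replicates lay far apart. Isoform 1 had 1458 and 4289 counts in D91 and 0 in both GP libraries. Isoform 2 had 0 and 16.2 counts in D91 and 1788 and 1776 in GP. Isoform 1 thus made up 100% and 99.6% of the gene in D91 and isoform 2 made up 100% in both GP libraries. Against a floor of 3 counts per library, isoform 1 was at least 618-fold higher in D91. The gene stayed among the 200 because of the 16.2 counts of isoform 2 in D91 replicate 2. The isoforms were alike in relative length, at 1.37 and 1.36. Whether they are alleles of the cultivars assembled apart was not tested.

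Over all 2175 genes with at least 2 tested isoforms, edgeR's test of isoform usage found a change in 7.68%. Of the 38 such genes among the 200, with 97 isoforms, it found a change in 1, TRINITY_GG_3964_c0_g1 (edgeR, Simes method, adjusted p = 0.00451), and 3 had an unadjusted p under 0.05. Of 52 such genes among those above the limit, 7 (13.5%) changed. Without either GP replicate the call for TRINITY_GG_3964_c0_g1 was lost, as were the calls over all genes in the test. It held without either D91 replicate, where fewer genes were called over the whole test as well. Such fits hold a single library of a cultivar, so their p-values are not given. With all libraries the isoform shares of the cultivars did not overlap, which leaving out a library cannot change, so this is no further check.

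TRINITY_GG_27925_c0_g1 showed a partial exchange and did not pass as a gene by the Simes method (edgeR adjusted p = 0.0600), while it passed by edgeR's gene-level F test (adjusted p = 0.0159). Its total was 325 CPM in both D91 libraries and 262 and 269 in GP. Isoform 2 held 0% and 1.23% of its counts in D91 and 31.7% and 21.1% in GP. Its usage was higher in GP by 3.56 on the log2 scale (edgeR adjusted p = 0.0325 over all isoforms in the test). Isoform 3 went the other way, with 20.9% and 17.7% in D91 and 2.57% and 0% in GP, and did not pass (edgeR adjusted p = 0.0992). Isoform 1 held most of the gene throughout, between 65.7% and 81.1%.

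The other 4 genes with a shift over 10 points were singled out after their values were seen, and none passed the test of usage. In TRINITY_GG_785_c0_g1 isoform 1 held 44.9% and 48.5% in D91 and 62.6% and 63.0% in GP, so that the leading isoform differed between the cultivars and the groups did not overlap. In TRINITY_GG_564_c0_g1 isoform 1 held 21.5% and 11.5% in D91 and 5.58% and 4.14% in GP. In TRINITY_GG_4647_c0_g1 isoform 3 held 65.4% and 64.4% in D91 and 56.0% and 50.4% in GP. In TRINITY_GG_10656_c0_g1, among the evenest genes in total, isoform 4 held 46.8% and 68.2% in D91 and 42.4% and 51.9% in GP, and the cultivars overlapped.

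**Figure D5:**
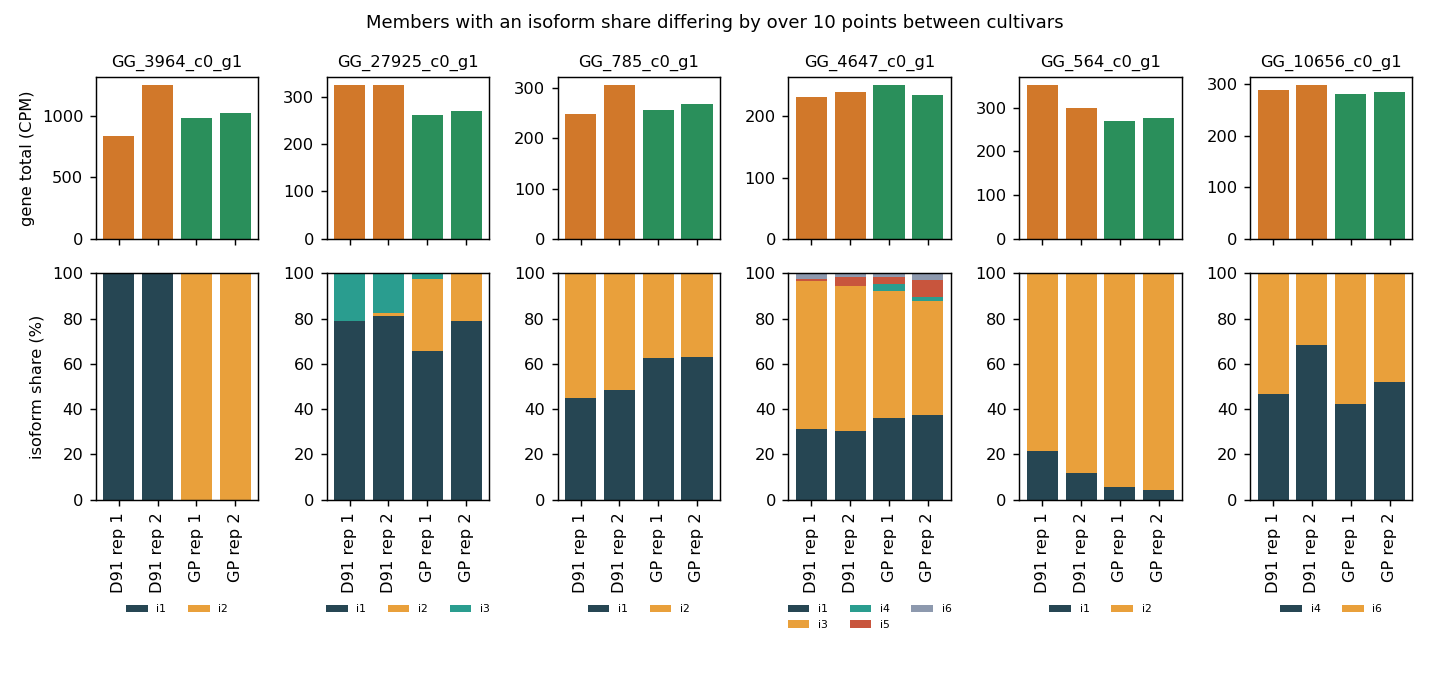
For the 6 members whose isoform shares differed by over 10 percentage points between cultivars, the upper bars give the gene total in CPM in each library (D91 orange, GP green) and the lower stacked bars the percentage of its counts on each isoform. The totals stay within 1.5 times by construction, with that of TRINITY_GG_3964_c0_g1 running from 836 to 1250 CPM, while the gene passes from 100% and 99.6% isoform 1 in D91 to 100% isoform 2 in GP.

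When isoforms were tested by level instead of by usage, 4 of the same 97 isoforms passed (edgeR quasi-likelihood test, adjusted p under 0.05), beside 9.49% of all 20636 tested isoforms and 12.5% of those in genes with several tested isoforms. They were both isoforms of TRINITY_GG_3964_c0_g1, isoform 2 of TRINITY_GG_27925_c0_g1 and isoform 4 of TRINITY_GG_8358_c0_g1. The last held 1.45% and 1.91% of its gene in D91 and 3.36% and 4.76% in GP. Leaving out a D91 replicate raised the number of calls in such genes and over all tested isoforms. Without either GP replicate the calls were lost over all tested isoforms, so nothing is read from their loss in such genes. Such fits hold a single library of a cultivar, and their counts are not given here. Estimated counts of isoforms share reads and are less certain than gene totals.

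The 200 genes lay at 196 loci of the assembly, and 4 loci held a pair of them. TRINITY_GG_16127_c0_g2 shared its locus with TRINITY_GG_16127_c0_g3, which stood at 1408 and 1563 CPM in D91 and 1589 and 1835 in GP. TRINITY_GG_1666_c0_g1 shared its locus with TRINITY_GG_1666_c1_g1, which stood at 598 and 812 CPM in D91 and 749 and 821 in GP. In both genes of that locus D91 replicate 1 was the lowest library. Genes under the same locus number may be parts of the same transcript. A further 332 genes lay at these loci, and 30 of them were tested. Of these 30, 4 (13.3%) differed between cultivars by the edgeR test, beside 19.2% of all tested genes. Of the 28 that reached 10 counts in each library, 9 (32.1%) lay within 1.5 times, beside 30.8% of all such genes.

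A pair of the 200 could not be told apart. TRINITY_GG_12696_c1_g1 and TRINITY_GG_8769_c1_g1, at different loci, had the same 763 and 1677 counts in D91 and the same 758 and 743 in GP, and the same relative length of 0.83. Near-identical copies that share reads would look like this, so the levels of the pair are uncertain. No other gene of the 200 had the same counts as a gene at another locus. Copies that differ by a few counts were not searched for.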

How the data were processed

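RNA sequencing of 4 barley callus libraries, 2 per cultivar, was used. Per the labels' protocols, column-purified, DNase-treated total RNA (1.5 µg) went into SMARTER mRNA libraries. STAR, RSEM and DESeq2 are listed, without versions, in the submitters' processing notes. Genome build, filters and assembly settings: not given in the sources used. The authors' isoform table holds expected counts. In the authors' TMM tables the values are a length-scaled signal (TPM times a library factor). The deposited gene table called counts is the same signal on another scale. Among genes with a high signal in every library, the SD of the ratio of both was at most 0.000878% of its mean within a library. Gene counts were therefore rounded sums of isoform counts, and isoform counts were rounded for testing.

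The edgeR package (4.0.16, under R 4.3.3) tested genes, isoforms and isoform usage by diffSpliceDGE (TMM, filterByExpr, cultivar only, glmQLFit), with Benjamini-Hochberg adjustment over the whole table and a threshold of 0.05. Members and lists were chosen with earlier results of these data known. No gene list was used, since no identifier has a name. Named genes were the 4 most abundant, the 3 evenest, those next to each limit, those with called isoforms in usage and the 2 least even in signal. Others named were chosen after their values were seen. Alternatives were RLE factors, library totals, other filters, a replicate block, DESeq2 1.42.0, limma 3.58.1, stricter and looser ratio limits, thinning, and leaving out each library. Intervals for shares of genes are not given, since genes are not independent. Of unmapped samples, 0 columns were present.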

Additional observations from a re-analysis of the deposited data

How the results depend on the processing

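Of the 200 genes, the gene-level test called 0 with RLE factors, library totals, at least 10 counts in every library, the replicate block and limma on the deposited signal (2 to 7 at an unadjusted p under 0.05), 2 without a filter, 1 in DESeq2, and 0 to 41 with a library left out. Over all genes tested, 4851 of 60485 were called without a filter and 1818 of 60485 in DESeq2. The choice of the 200 used this contrast, so nothing is read from the gap. Fits with a library left out hold a single library of a cultivar, and the number called over all tested genes moved as well. Nothing is read from their counts, for genes or for isoforms. Usage changed in 1 of 38 genes, beside 167 of all 2175 tested. The count was 4 in limma and 3 by the gene-level F test, beside 319 and 249 of the 2175. Without a filter it was 2 of 50, beside 129 of 7493. It was 0 with at least 10 counts in every library, which leaves 26 genes and drops isoforms absent from a cultivar (3 at an unadjusted p under 0.05). Of all 615 genes tested there, 4 changed. With a library left out fewer genes were called over the whole test, and counts are not given. Isoforms called by level numbered 7 in DESeq2 and 0 to 16 with a library left out. The 7 in DESeq2 were among 147 isoforms of such genes, beside 1983 of all 73783 isoforms tested there. With the replicate block 0 of the 38 genes changed in usage, and 0 of all 2175 tested genes did. Of the 38, 3 had an unadjusted p under 0.05, and TRINITY_GG_3964_c0_g1 had an edgeR adjusted p of 0.210. By level 0 isoforms of such genes passed (17 at an unadjusted p under 0.05, edgeR), and 0 of all 20636 tested isoforms did. The replicate numbers share no known pairing: deviations of same-numbered libraries correlated at r = 0.03 across genes. The rule returned 101 of the 200 genes on the deposited gene signal, 106 on the deposited gene table, 93 at the stricter ratio limit, which only 93 of them meet, and 133 at a limit of 2. It returned 177 to 193 under other scalings and thinning, and 141 to 189 with a library left out. The share of equally abundant genes within the limit, added after seeing the data, was 50.3% to 51.9% under other scalings and thinning and 53.1% to 69.5% with a library left out. Of genes chosen on the first replicates and read in the second, 77% stayed within the limit on the TMM scale. The usage of TRINITY_GG_27925_c0_g1 passed by the F test (edgeR adjusted p = 0.0159), without a filter (edgeR adjusted p = 0.0318) and in limma (adjusted p = 0.00985). It did not pass with RLE factors, library totals or the replicate block (edgeR adjusted p = 0.0590, 0.0563 and 0.359). Nor did it pass with a library left out, in fits that hold a single library of a cultivar. Where no cause is given, the cause was not tested. With 2 libraries a cultivar, spread within a cultivar rests on a single difference.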
